A study of Mus musculus with 14 samples.

Results

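Copying the genome requires a set of proteins that license replication origins, unwind DNA and build the new strands, together with enzymes that supply the deoxynucleotides. The 43 genes described here encode such proteins and were chosen by symbol: for each, the brightest probe set whose annotation names that gene alone was used. All 43 were measured, out of 19938 genes that have such a probe set and 35556 probe sets in all. They are grouped below into 9 roles in the order in which replication uses them.

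The samples were plantaris muscles of male C57BL/6J mice aged 5 months. The plantaris is a small fast muscle of the lower hind leg, and it grows when its synergists, the neighbouring muscles that share its load, are removed (synergist ablation). Muscles were taken at day 0 and after 1, 3, 5, 7, 10 and 14 days of overload, and day 0 carries no treatment label. Each day had 1 pool of right and 1 pool of left muscles, each from 6 animals and each hybridised to 1 Affymetrix Mouse Gene 1.0 ST array, which gives 14 arrays. None of the samples is labelled as sham-operated, so day 0 is the only reference, and all 6 comparisons with it share the same 2 arrays. Whether a day's right and left pools share their animals is not labelled, and the p-values therefore measure spread between pools. With 2 arrays per day the typical (median) standard error of a log2 difference was 0.10.

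Values are log2 of the deposited intensity, a probe set's brightness, and values of the 2 pools are given right first and left second. A probe set's brightness also depends on its probes, so levels are compared between days within a gene and not between genes. Differences are log2 of the later day minus the earlier day with the standard error (SE, n = 2 arrays per day), and a gene was called risen or fallen at a limma adjusted p under 0.05 (Benjamini-Hochberg over all 19938 genes, two-sided). The 8 fast muscle markers averaged 13.99 and 14.00 at day 0. The 15 hepatocyte markers, led by Alb, Cyp2e1 and Ttr, were uneven between pools, from 8.01 to 12.06 over the 14 arrays.

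Replication begins when the origin recognition complex, Cdc6 and Cdt1 load the ring of Mcm2 to Mcm7 proteins onto DNA in G1. Cyclin E with its kinase, Mcm10, Cdc45 and the GINS complex then turn the ring into an active helicase, and the polymerases, the sliding clamp Pcna and its loader copy the strands. Adult muscle fibres are post-mitotic, so in this tissue these genes are known chiefly from the mononuclear cells between the fibres, among them satellite cells, the muscle stem cells, and immune, endothelial and connective tissue cells.

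The 43 genes moved in stages. At day 1, 15 rose and 4 fell, where 20.3% of all genes rose and 34.7% fell. At day 3, 38 rose and 2 fell, against 24.2% and 23.4% of all genes, and the median of the 43 changes was 1.00 where that of all genes was -0.07. The same numbers, 38 risen and 3 fallen, were found at day 5 (27% and 38.1% of all genes) and at day 7 (28.5% and 37.8%), with medians of 1.01 and 0.93. At day 10, 22 were still above day 0 and 5 below it (23.6% and 27.5% of all genes), and at day 14 the counts were 14 and 5 (21.4% and 20.7%), with medians of 0.37 and 0.19. In bulk muscle RNA, more cells of a type and more RNA per cell cannot be told apart, and this holds for every change given here.

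After day 1, the changes between consecutive days fell into 2 steps. From day 1 to day 3, 38 genes rose and 0 fell (21.5% and 13.2% of all genes), and all 43 differences were above 0. From day 3 to day 5 only Pold2 was called, and it fell (6.41% of all genes rose and 4.74% fell), and from day 5 to day 7 no gene of the 43 was called (0.667% and 0.487%), with 0 risen and 1 fallen at an unadjusted p under 0.05. From day 7 to day 10, 37 fell and 0 rose (9.52% and 6.95% of all genes), and all 43 differences were below 0 with a median of -0.72. From day 10 to day 14 again 0 were called (2.11% of all genes rose and 2.56% fell), although 38 differences were below 0, 9 fell and 1 rose at an unadjusted p under 0.05, and the smallest adjusted p was 0.0511, for Cdt1. The highest daily mean came at day 3 for 15 genes, at day 5 for 8 and at day 7 for 18, and at day 0 for Rpa1 and Rpa2.

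**Figure D1:**
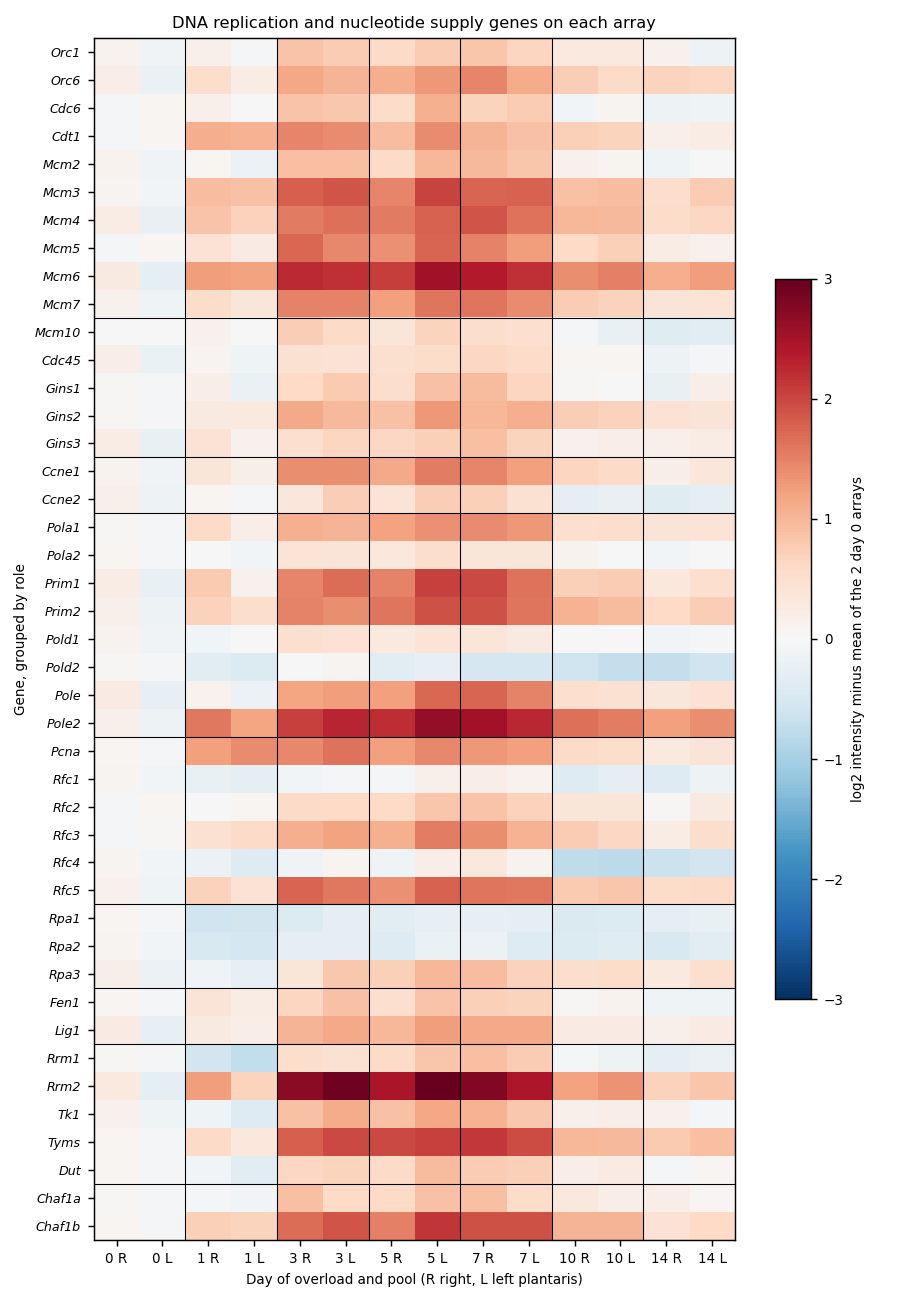
Heat map of the 43 genes (rows, grouped by role, with lines between roles) on the 14 arrays (columns, day and right or left pool); colour gives log2 intensity minus the gene's mean of the 2 day 0 arrays. Most rows turn red at days 3, 5 and 7 and pale at day 10, while Rpa1, Rpa2 and Pold2 stay near or below their day 0 colour.

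Single pools bear on these counts. The drop from day 7 to day 10 was called for fewer genes without some of them: with the right pool of day 7 left out, 14 genes were called, with the right pool of day 10 left out 21, and with the left pool of day 10 left out 24. All of these were falls, and the median changes were -0.63, -0.73 and -0.72. The hepatocyte markers were brightest on the day 0 left and day 1 right arrays (12.05 and 12.06). With both of these arrays left out, the median change of the 43 at day 1 was -0.01, against 0.23 with all 14 arrays. That fit sets a left pool against a right one.

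Among the origin licensing genes, all 10 rose at days 3, 5 and 7, and 5 rose at day 1: Cdt1, Mcm3, Mcm4, Mcm6 and Mcm7. Mcm6, a subunit of the helicase ring, read 7.88 and 7.33 at day 0, 8.87 and 8.81 at day 1, 9.85 and 9.80 at day 3, 9.68 and 10.13 at day 5, 9.99 and 9.80 at day 7, 9.01 and 9.11 at day 10 and 8.69 and 8.87 at day 14. Both pools of every later day lay above both pools of day 0. Its rise was 1.23 ± 0.17 at day 1 (adjusted p = 0.000111), 2.22 ± 0.17 at day 3 (adjusted p = 9.39e-07), or 4.65-fold, and still 1.17 ± 0.17 at day 14 (adjusted p = 0.000245).

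The 6 ring subunits, which act as 1 complex, did not start at the same size. At day 1 Mcm3 rose by 0.91 ± 0.15, Mcm4 by 0.78 ± 0.14 and Mcm7 by 0.46 ± 0.13, while Mcm5 (0.35 ± 0.14, adjusted p = 0.0536) and Mcm2 (-0.06 ± 0.13, adjusted p = 0.748) were not called. By day 3 all 6 had risen, Mcm2 by 0.90 ± 0.13 and the others by between 1.49 (Mcm7) and 2.22 (Mcm6). Differences between subunits were not tested. At day 14 Mcm3, Mcm4, Mcm6 and Mcm7 were above day 0, and Mcm2 (-0.07 ± 0.13) and Mcm5 (0.18 ± 0.14) were not called.

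Cdt1, the loading factor that is destroyed once S phase begins, was early. It read 8.10 and 8.22 at day 0, 9.25 and 9.20 at day 1, 9.63 and 9.59 at day 3, 9.09 and 9.58 at day 5, 9.17 and 9.05 at day 7, 8.86 and 8.83 at day 10 and 8.32 and 8.38 at day 14. Each later pool was above both day 0 pools, and the 2 pools of day 3 were the highest. It rose by 1.06 ± 0.13 at day 1 (adjusted p = 3.05e-05) and by 1.45 ± 0.13 at day 3, then stood at 0.95 ± 0.13 at day 7 and 0.19 ± 0.13 at day 14 (adjusted p = 0.233). Cdc6, which loads the ring with Cdt1, did not share the early step: it read 7.37 and 7.48 at day 0, 7.58 and 7.44 at day 1 and 8.28 and 8.24 at day 3. Its pools of days 0 and 1 overlapped, and the changes were 0.09 ± 0.14 at day 1 (adjusted p = 0.607) and 0.83 ± 0.14 at day 3 (adjusted p = 0.000313). Orc1, the largest subunit of the origin recognition complex, changed likewise by 0.05 ± 0.12 and then 0.81 ± 0.12, and at day 14 neither was called (-0.14 ± 0.14 for Cdc6 and -0.01 ± 0.12 for Orc1). Orc6 rose by 1.09 ± 0.16 at day 3 and was at 0.64 ± 0.16 at day 14 (adjusted p = 0.00708; not passed when the day 0 left pool was left out).

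Promoters of replication genes are known for sites of the E2F transcription factors, so the windows of the RefSeq promoter table (GRCm38.p6, 250 bases before to 50 after each gene's start) were searched for 4 words, TTTCCCGC, TTTCGCGC, TTTGCCGC and TTTGGCGC, on both strands, where matches can overlap. Of the 43 genes, 36 have a window and some have several, 41 in all. At least 1 word stood in 13 of the 41 windows (31.7%), each of a different gene, against 2.26% of all 32851 windows. In the 250 bases before the start the shares were 8 of 41 (19.5%) and 1.86%. CCAAT, on either strand, stood in 56.1% of the 41 windows and 37.4% of all. The genes with a word before the start were Orc1, Cdc6, Mcm5, Mcm6, Mcm7, Gins3, Pola1 and Rfc3. Mcm3, Cdt1, Pole2, Pold1 and Lig1 had one at or after it. A match is a description of letters and not of a bound site. The last 200 bases before the start are shown for 4 licensing genes, of which Mcm6 was already raised at day 1 and the others were not called then, and for Rpa1, which fell and has no match; capitals mark the words or their reverse complements. The stretches are chr1:128359706-128359905 (minus strand), chr8:75109309-75109508 (plus strand), chr4:108579254-108579453 (plus strand), chr11:98907951-98908150 (plus strand) and chr11:75348384-75348583 (minus strand), each written 5′ to 3′ along its gene.
Mcm6: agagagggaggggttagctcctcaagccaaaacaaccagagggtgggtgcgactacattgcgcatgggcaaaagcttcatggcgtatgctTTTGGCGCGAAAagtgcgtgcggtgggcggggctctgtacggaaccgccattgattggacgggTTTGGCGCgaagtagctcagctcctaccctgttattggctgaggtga
Mcm5: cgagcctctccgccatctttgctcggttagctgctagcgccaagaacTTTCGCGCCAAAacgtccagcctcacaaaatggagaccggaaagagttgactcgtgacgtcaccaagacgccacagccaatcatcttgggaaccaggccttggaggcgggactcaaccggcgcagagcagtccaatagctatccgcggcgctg
Orc1: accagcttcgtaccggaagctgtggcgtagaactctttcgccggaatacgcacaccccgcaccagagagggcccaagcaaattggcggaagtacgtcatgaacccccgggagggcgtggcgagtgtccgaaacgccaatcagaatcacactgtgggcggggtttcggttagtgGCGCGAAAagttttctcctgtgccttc
Cdc6: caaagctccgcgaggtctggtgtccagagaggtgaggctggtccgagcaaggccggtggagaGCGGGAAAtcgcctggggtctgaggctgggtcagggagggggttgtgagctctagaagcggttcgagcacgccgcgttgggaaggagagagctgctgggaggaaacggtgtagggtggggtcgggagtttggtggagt
Rpa1: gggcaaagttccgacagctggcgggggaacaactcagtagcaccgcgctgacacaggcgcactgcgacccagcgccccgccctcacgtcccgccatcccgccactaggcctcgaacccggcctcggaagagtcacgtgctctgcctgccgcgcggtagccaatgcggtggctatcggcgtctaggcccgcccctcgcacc

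The Mcm6 stretch holds 3 matches, beginning 110, 106 and 47 bases before the start, and the first pair overlaps. Mcm5 holds 2, overlapping, 153 and 149 bases before the start, Orc1 holds 1 at 27 and Cdc6 holds 1 at 138. Of the 8 genes with a word before the start, Mcm6, Mcm7, Pola1 and Rfc3 rose at day 1 and Orc1, Cdc6, Mcm5 and Gins3 were not called. Pcna and Rrm2, both raised at day 1, had none of the 4 words in their windows and had CCAAT before the start. Rfc5, Fen1, Tyms and Chaf1b, also raised at day 1, had neither the words nor CCAAT in their windows. Rrm1, Rpa1, Rpa2 and Pold2, which fell at day 1, had CCAAT before the start and none of the words.

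The 5 helicase activation genes (Mcm10, Cdc45, Gins1, Gins2 and Gins3) were not called at day 1, with changes between -0.02 and 0.28, and all 5 rose at days 3, 5 and 7. Gins2, a subunit of the GINS complex that travels with the helicase, changed most: it read 8.12 and 8.06 at day 0, 8.37 and 8.38 at day 1, 9.23 and 9.06 at day 3, 8.96 and 9.39 at day 5, 9.09 and 9.17 at day 7, 8.83 and 8.78 at day 10 and 8.52 and 8.47 at day 14. Its day 1 pools were above those of day 0 by an amount that did not pass the test (0.28 ± 0.12, adjusted p = 0.0609), and it rose by 1.05 ± 0.12 at day 3. Cdc45 (0.45 ± 0.12), Gins3 (0.56 ± 0.14), Mcm10 (0.65 ± 0.11) and Gins1 (0.69 ± 0.17) had smaller rises at day 3, though Cdc45 and Gins3 did not pass without the day 0 left pool, nor Gins1 and Gins3 without the day 3 left pool. Gins2 alone of the 5 was above day 0 at day 10 and day 14. Its day 14 call was lost without the day 0 left pool or either pool of day 14. Mcm10, which helps to start unwinding, was below day 0 at day 14 (-0.33 ± 0.11, adjusted p = 0.0272), a call lost without any 1 of the 4 pools of days 0 and 14.

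The 2 E-type cyclins, partners of Cdk2 at the entry into S phase, both rose at days 3, 5 and 7, with unlike sizes. Ccne1 read 8.35 and 8.12 at day 0, 8.60 and 8.40 at day 1, 9.63 and 9.63 at day 3, 9.36 and 9.77 at day 5, 9.69 and 9.46 at day 7, 8.87 and 8.80 at day 10 and 8.41 and 8.58 at day 14. It stepped up between days 1 and 3, with no overlap, by 1.13 ± 0.14 (adjusted p = 0.000113). Ccne2 rose by 0.53 ± 0.16 at day 3 (adjusted p = 0.0155), a call that was lost when either the day 0 or the day 3 left pool was dropped. Its calls at days 5 and 7 were likewise lost without the day 0 left pool (adjusted p = 0.0779 and 0.0697), and without the day 5 left (adjusted p = 0.0867) or day 7 right pool (adjusted p = 0.0729). Over the 14 arrays Ccne1 followed the mean of the other 42 genes most closely, with a correlation of 0.99, given as a description since all points share the arrays and the days.

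**Figure D2:**
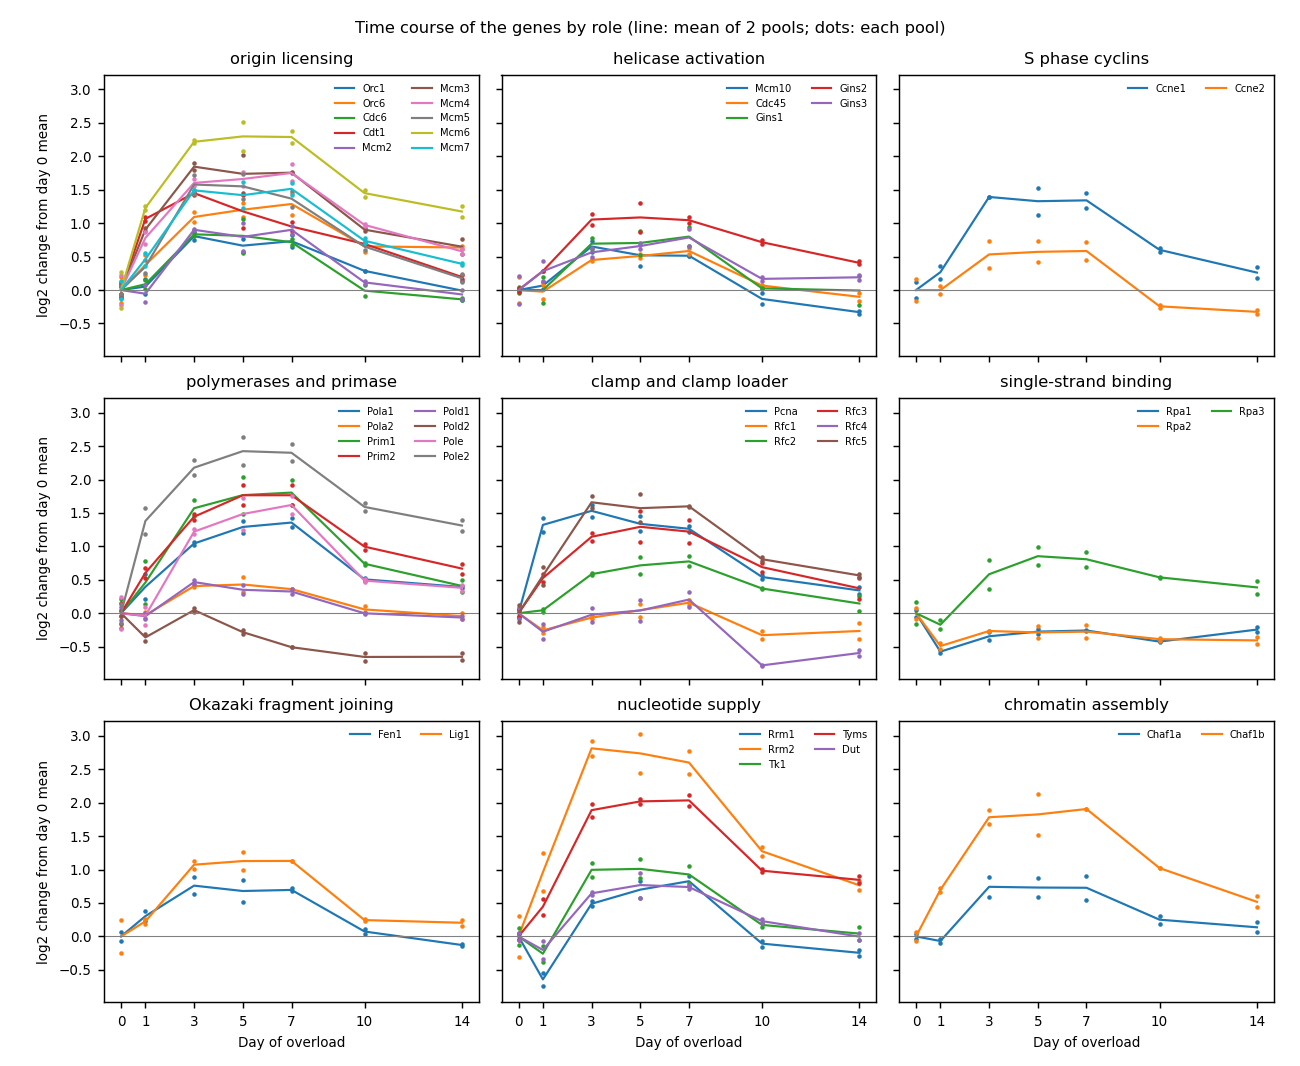
Log2 change from the day 0 mean (vertical axis) against the day of overload (horizontal axis) for the 43 genes in 9 panels by role; lines join the daily means of the 2 pools and dots are the single pools. Rrm2, Pole2 and Mcm6 reach the highest values, Rrm1 dips at day 1 before it rises, Rpa1 and Rpa2 run below 0, and Pold2 does so on all later days but day 3.

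Among the polymerases and primase, 3 of 8 genes rose and 1 fell at day 1, and 7 rose at days 3, 5 and 7. Pole2, the second subunit of the leading strand polymerase epsilon, had the largest rise of the 43 at day 1. It read 6.76 and 6.47 at day 0, 8.19 and 7.80 at day 1, 8.68 and 8.91 at day 3, 8.83 and 9.25 at day 5, 9.14 and 8.89 at day 7, 8.27 and 8.14 at day 10 and 7.84 and 8.01 at day 14. No later pool came near the day 0 pair, and the changes were 1.38 ± 0.17 at day 1 (adjusted p = 4.77e-05), 2.42 ± 0.17 at day 5, or 5.37-fold, and 1.31 ± 0.17 at day 14 (adjusted p = 0.000113). Pole, the catalytic subunit of the same enzyme, read 7.94 and 7.46 at day 0, 7.80 and 7.53 at day 1, 8.89 and 8.96 at day 3, 9.45 and 9.19 at day 7 and 8.04 and 8.12 at day 14. Its day 1 pools lay within the day 0 range (-0.04 ± 0.18, adjusted p = 0.876), and its rise came between days 1 and 3 (1.26 ± 0.18, adjusted p = 0.000306).

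The polymerase alpha and primase complex, which lays the primers, showed the same spread. Prim2, the large primase subunit, rose by 0.60 ± 0.14 at day 1 and 1.76 ± 0.14 at day 5, and Pola1, the catalytic polymerase subunit, by 0.39 ± 0.11 and 1.29 ± 0.11. Prim1, the small primase subunit, read 7.18 and 6.74 at day 0 and 7.74 and 7.10 at day 1, overlapping ranges (0.46 ± 0.24, adjusted p = 0.119), and rose by 1.57 ± 0.24 at day 3. Pola2, the regulatory subunit, rose least of the 4, by 0.41 ± 0.08 at day 3 and 0.43 ± 0.08 at day 5.

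In polymerase delta, which copies the lagging strand, Pold2 fell at day 1 and from day 5 on, while Pold1 rose at day 3. So did 2 further subunits from the list of other replication factors, Pold3 (1.43 ± 0.08) and Pold4 (0.94 ± 0.10). The catalytic subunit Pold1 rose by 0.47 ± 0.08 at day 3 (adjusted p = 0.000559) and was at -0.06 ± 0.08 at day 14. Pold2, the accessory subunit, read 10.96 and 10.89 at day 0, 10.62 and 10.51 at day 1, 10.94 and 11.01 at day 3, 10.61 and 10.68 at day 5, 10.41 and 10.42 at day 7, 10.32 and 10.22 at day 10 and 10.22 and 10.32 at day 14. It was below day 0 with no overlap on every later day except day 3, when its pools stood around the day 0 pair. It fell by 0.36 ± 0.07 at day 1 (adjusted p = 0.00177), differed by 0.05 ± 0.07 at day 3, and fell by 0.51 ± 0.07 at day 7 and 0.65 ± 0.07 at day 14 (adjusted p = 3.84e-05), the largest fall of the 43 at day 14. Its fall from day 3 to day 5, -0.33 ± 0.07 (adjusted p = 0.0192), did not pass without any 1 of the 4 pools of those days.

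Pcna, the sliding clamp that holds the polymerases on DNA, reached most of its rise within 1 day. It read 10.17 and 10.05 at day 0, 11.33 and 11.54 at day 1, 11.56 and 11.73 at day 3, 11.34 and 11.56 at day 5, 11.42 and 11.33 at day 7, 10.68 and 10.63 at day 10 and 10.41 and 10.50 at day 14. The pools of days 1, 3, 5 and 7 lay close together and far above day 0, and those of day 14 just above it. The rise was 1.32 ± 0.10 at day 1 (adjusted p = 1.14e-06), the smallest adjusted p of the 43 genes on that day, and the further step to day 3 was 0.21 ± 0.10 (adjusted p = 0.138). Of the 15 genes that rose at day 1, Pcna alone had no called rise from day 1 to day 3. A second probe set that also names only Pcna differed from it by at most 0.03 on any array, and signal of a near-identical copy could not be told apart from that of Pcna.

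The 5 subunits of replication factor C, which loads the clamp, split into 2 sets. Rfc5, Rfc3 and Rfc2 rose at day 3 by 1.66 ± 0.14, 1.14 ± 0.16 and 0.58 ± 0.10, and Rfc5 and Rfc3 had risen at day 1 already (0.56 ± 0.14 and 0.53 ± 0.16). Rfc1, the large subunit, and Rfc4 were not called at days 1, 3, 5 or 7, with changes between -0.28 and 0.20. Rfc4 read 10.31 and 10.14 at day 0, 10.06 and 9.84 at day 1, 10.10 and 10.31 at day 3, 10.10 and 10.43 at day 5, 10.54 and 10.32 at day 7, 9.46 and 9.44 at day 10 and 9.59 and 9.67 at day 14. From day 7 to day 10 it dropped to below every earlier pool, by 0.98 ± 0.13 (adjusted p = 0.00117), and it was below day 0 at day 10 (-0.78 ± 0.13) and at day 14 (-0.59 ± 0.13, adjusted p = 0.00324). Rfc1 fell from day 7 to day 10 by 0.49 ± 0.10 and was at -0.33 ± 0.10 at day 10. Both calls were lost without the day 10 right pool, the first also without the day 7 right pool and the second without the day 0 right pool.

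The trimer that coats single-stranded DNA, replication protein A, went against the other groups in 2 of its 3 subunits. Rpa1, the large subunit, read 10.04 and 9.93 at day 0, 9.39 and 9.43 at day 1, 9.58 and 9.70 at day 3, 9.68 and 9.75 at day 5, 9.73 and 9.72 at day 7, 9.56 and 9.57 at day 10 and 9.71 and 9.77 at day 14. All 12 later pools were below both day 0 pools, and the day 1 pair was the lowest. It fell by 0.57 ± 0.07 at day 1 (adjusted p = 4.05e-05) and by between 0.24 and 0.42 on the later days, and its falls at days 7 and 14 did not pass without the right pool of day 0 (adjusted p = 0.0623 and 0.108), the latter also not without the right pool of day 14. Rpa2 fell by 0.49 ± 0.09 at day 1 (adjusted p = 0.00106), and by between 0.27 and 0.41 later, where the calls of days 3, 5 and 7 ended without the right pool of day 0 and without at least 1 of each day's own pools. Rpa3, the small subunit, was at -0.17 ± 0.16 at day 1 and then rose, by 0.85 ± 0.16 at day 5 (adjusted p = 0.000826). The correlations of Rpa1, Rpa2 and Pold2 with the mean of the other genes over the 14 arrays were -0.12, 0.02 and 0.14, where 36 of the 43 genes were over 0.8.

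Fen1, the nuclease that trims Okazaki fragments, the short pieces of the lagging strand, rose by 0.76 ± 0.12 at day 3, and Lig1, the ligase that seals them, by 1.07 ± 0.14. At day 1 Fen1 read 8.10 and 7.95 against 7.79 and 7.66 at day 0, without overlap. That difference of 0.30 ± 0.12 was the weakest call of the day (adjusted p = 0.0455), and it did not hold without the day 1 right pool or either day 0 pool. It was also lost without any 1 of the 6 pools of days 7, 10 and 14. Neither was called at day 10 (0.07 ± 0.12 and 0.24 ± 0.14) or at day 14 (-0.13 ± 0.12 and 0.20 ± 0.14).

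In nucleotide supply, the largest change of all 43 genes was that of Rrm2, the small subunit of ribonucleotide reductase, the enzyme that makes deoxynucleotides from ribonucleotides. Rrm2 read 8.66 and 8.06 at day 0, 9.61 and 9.03 at day 1, 11.07 and 11.28 at day 3, 10.81 and 11.39 at day 5, 11.13 and 10.79 at day 7, 9.57 and 9.70 at day 10 and 9.06 and 9.19 at day 14. Days 3 to 7 stood clear of all other days, and at days 0 and 1 the right pool was above the left. The rise was 0.96 ± 0.24 at day 1 (adjusted p = 0.00656), 2.81 ± 0.24 at day 3 (adjusted p = 2.27e-06), or 7.03-fold, and 0.76 ± 0.24 at day 14 (adjusted p = 0.0273). The day 1 call was lost without the day 0 left pool (adjusted p = 0.0657) or the day 1 right pool (adjusted p = 0.0582), and the day 14 call without the day 0 left pool or either pool of day 14.

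The large subunit Rrm1 first went down. It read 10.55 and 10.47 at day 0, 9.97 and 9.77 at day 1, 11.04 and 10.96 at day 3, 11.08 and 11.34 at day 5, 11.41 and 11.27 at day 7, 10.45 and 10.36 at day 10 and 10.22 and 10.31 at day 14. Both day 1 pools lay below, and all pools of days 3, 5 and 7 above, the day 0 pair. Rrm1 fell by 0.64 ± 0.10 at day 1 (adjusted p = 0.000286), the largest fall of the 43 on that day, rose from day 1 to day 3 by 1.13 ± 0.10 (adjusted p = 1.4e-05) and was 0.83 ± 0.10 above day 0 at day 7. At day 14 its pools were again below those of day 0 by an amount that did not pass the test (-0.25 ± 0.10, adjusted p = 0.0756).

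Tyms, thymidylate synthase, which makes the thymine nucleotide from its uracil precursor, had the smallest adjusted p of the 43 at days 3, 5, 7 and 10. It read 7.91 and 7.81 at day 0, 8.42 and 8.18 at day 1, 9.65 and 9.84 at day 3, 9.84 and 9.92 at day 5, 9.98 and 9.80 at day 7, 8.86 and 8.82 at day 10 and 8.65 and 8.75 at day 14. Every later pool was above both day 0 pools, with days 3, 5 and 7 together at the top. It rose by 0.45 ± 0.10 at day 1, 2.04 ± 0.10 at day 7 (adjusted p = 2.9e-08), or 4.10-fold, and 0.85 ± 0.10 at day 14 (adjusted p = 5.58e-05). Tk1, the thymidine salvage kinase, was at -0.26 ± 0.14 at day 1 (adjusted p = 0.132) and rose by 1.00 ± 0.14 at day 3. Dut, which removes deoxyuridine triphosphate, was at -0.20 ± 0.12 and then rose by 0.64 ± 0.12.

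Chaf1a and Chaf1b, subunits of chromatin assembly factor 1, which deposits histones behind the fork, both rose at day 3, by 0.74 ± 0.14 and 1.78 ± 0.16. Chaf1b read 7.47 and 7.33 at day 0, 8.13 and 8.08 at day 1, 9.08 and 9.29 at day 3, 8.92 and 9.54 at day 5, 9.31 and 9.31 at day 7, 8.42 and 8.43 at day 10 and 7.84 and 8.002 at day 14. It was above day 0 on all later pools and had risen by 0.70 ± 0.16 at day 1 (adjusted p = 0.00325). Chaf1a, the large subunit, was at -0.07 ± 0.14 at day 1 and was not called at days 10 and 14.

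**Figure D3:**
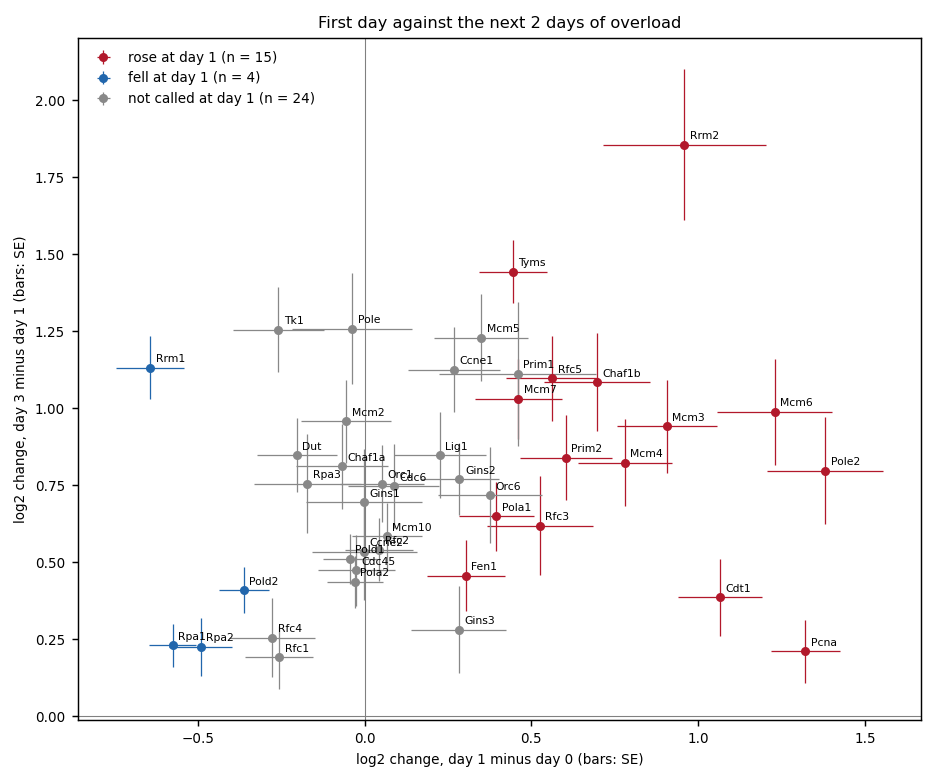
Log2 change from day 0 to day 1 (horizontal axis) against log2 change from day 1 to day 3 (vertical axis) for the 43 genes, with bars of 1 SE; colours give the day 1 call (15 risen, 4 fallen, 24 not called). All 43 points lie above 0 on the vertical axis, Pcna and Cdt1 far right and low, and Rrm1 far left and high; the axes share the day 1 arrays, so their relation is not read.

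Set beside each other, the genes that rose at day 1 came from 6 of the 9 roles, and helicase activation and the S phase cyclins had 0 each, as did single-strand binding. These last roles hold 5, 2 and 3 genes, and 20.3% of all genes rose at day 1, so a count of 0 is not read as a trait of a role. Levels of both pools lay above both day 0 pools for 19 of the 43 genes at day 1 (25.9% of all genes) and below for 9 (50.3% of all genes). At day 3 the counts were 38 (31.5%) and 2 (40.0%). The day 1 calls of Mcm7 and Pola1 were lost without either the day 0 left or the day 1 right pool, and that of Rfc3 without either the day 0 right or the day 1 left pool. With the day 0 left and day 1 right arrays both dropped, the largest rises were Pcna (1.36), Cdt1 (1.10), Pole2 (1.04), Mcm6 (0.92) and Mcm3 (0.79). The change of Rrm2 went from 0.96 to 0.37. The largest falls were Rrm1 (-0.78), Rpa2 (-0.61) and Rpa1 (-0.61), and the median of the 43 was -0.01. Calls are not given for this fit, which has 1 array for each of these days. Within the right pools the median change at day 1 was 0.21, and within the left pools it was 0.19.

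By day 14, 14 genes were above day 0 and 5 below. Pole2 and Mcm6 had the largest differences and were the 2 past 2-fold at day 14, where 4.9% of all genes were called and over 2-fold up. At day 10 there were 4 such genes (6.69% of all genes) and at day 7 there were 20 (9.68%). The others above day 0 at day 14 were Orc6, Mcm3, Mcm4, Mcm7, Gins2, Pola1, Prim2, Pcna, Rfc5, Rrm2, Tyms and Chaf1b. Those below were Mcm10, Pold2, Rfc4, Rpa1 and Rpa2. At day 14, 9 of the 43 were called when the day 0 left pool was dropped and 12 when the day 14 left pool was. The calls of Mcm6, Pole2, Tyms, Prim2, Pold2, Rfc4 and Rpa2 passed with each pool left out in turn.

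**Figure D4:**
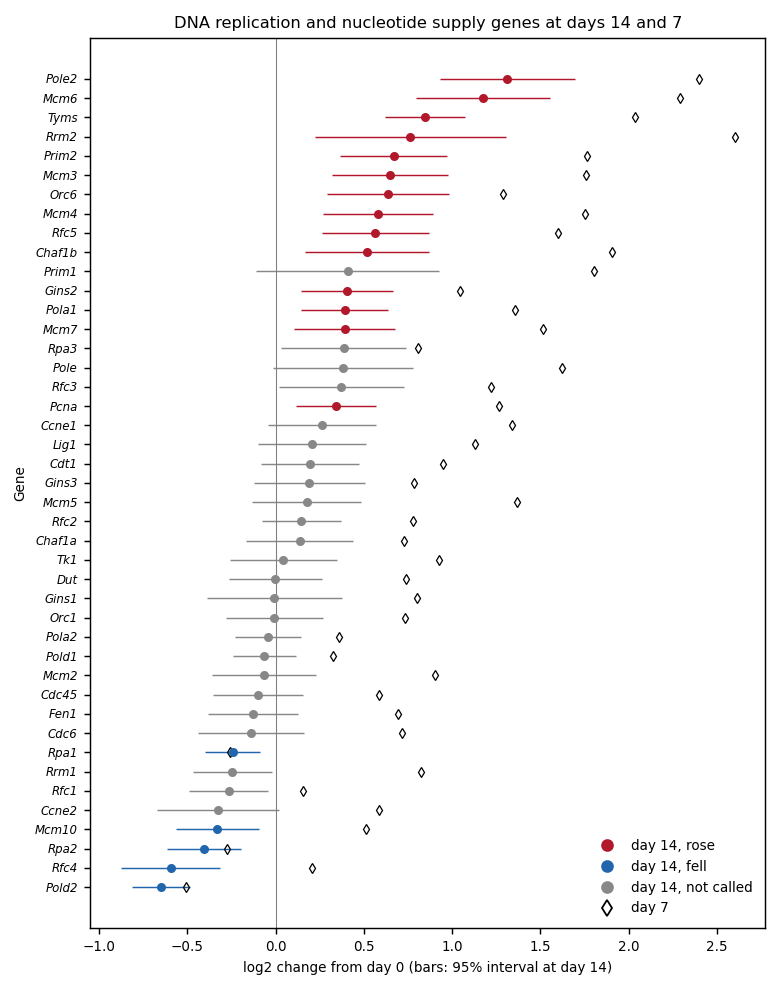
Log2 change from day 0 (horizontal axis) of the 43 genes (rows, in order of the day 14 value): dots are day 14 with 95% confidence intervals, coloured by call, and open diamonds are day 7. For most genes the diamond lies well to the right of the dot; Pole2 at 1.31 and Mcm6 at 1.17 lie highest at day 14, and Pold2 at -0.65 lowest.

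Right and left pools of a day were not level for these genes. At day 0, 38 of the 43 were higher in the right pool, with a median difference of 0.16 (0.05 over all genes), and at day 1, 37 were, with 0.15 (0.02). At day 5 all 43 were lower in the right pool, with a median of -0.31 (-0.02 over all genes). The satellite cell and myoblast markers differed the same way at day 5 (0 of 7 higher on the right, median -0.44), and the 8 fast muscle markers the other way (8 of 8 higher, 0.35). The 12 neutrophil precursor markers, of which Lcn2, Ngp and Mmp8 were brightest, were higher on the right at day 0 for 12 genes and at day 1 for 11. The exception at day 1 was Mmp8 (9.58 and 10.09), and Lcn2 differed little there (13.32 and 13.24). Their mean levels were 8.96 and 8.09 at day 0 and 9.63 and 8.63 at day 1. The median change of the 12 at day 1 was 0.04: 3 rose, 0 fell and 9 were not called. The shares of all genes that rose and fell were 20.3% and 34.7%. The 6 measured erythroid precursor markers, led by Alas2, averaged 8.63 and 8.22 at day 0 and 8.64 and 7.98 at day 1. The part of these lists in the day 1 changes was not tested.

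Marker lists of other cell types and of the fibres moved over the same days. Their counts stand beside the shares of all genes that rose and fell. These were 20.3% and 34.7% at day 1, 24.2% and 23.4% at day 3 and 27% and 38.1% at day 5. Later they were 28.5% and 37.8% at day 7, 23.6% and 27.5% at day 10 and 21.4% and 20.7% at day 14. From day 7 to day 10, 6.95% of all genes rose. The 8 fast muscle markers averaged 13.41 and 13.44 at day 3, 13.52 and 13.20 at day 5, 13.23 and 13.36 at day 7, 13.78 and 13.75 at day 10 and 13.90 and 13.91 at day 14. Of the 8, 2 fell at day 1, 8 at day 3 (median -0.57), 7 at day 5, 8 at day 7 (median -0.69), 4 at day 10 and 1 at day 14. All 8 rose from day 7 to day 10 (median 0.39), the step in which 37 replication genes fell. The 10 macrophage and monocyte markers, led by Lyz2, Cd68 and Mrc1, averaged 8.56 and 8.42 at day 0, 10.47 and 10.50 at day 1, 11.29 and 11.25 at day 3 and 10.07 and 10.16 at day 14, and 8 of 10 rose at day 1 and 10 at day 3. The 7 satellite cell and myoblast markers, led by Mymk, Myod1 and Chrng, averaged 8.68 in both pools of day 0, 8.56 and 8.46 at day 1, 9.76 and 9.68 at day 3, 10.17 and 10.66 at day 5 and 9.50 and 9.47 at day 14. Of the 7, 1 rose and 3 fell at day 1, near the shares of all genes, and 5 rose at day 3 and 7 at days 5 and 7. The endothelial markers, led by Cdh5, Emcn and Pecam1, had means from 10.18 to 11.02 over the arrays. Those of fibro-adipogenic progenitors, led by Dcn, Cd34 and Pdgfra, ranged from 10.32 to 11.53, and those of lymphocytes, led by Cd79b, Cd4 and Cd3e, from 7.25 to 7.62. These lists were mixed. Of the 6 endothelial markers, 1 rose and 3 fell at day 1, and 4 rose and 2 fell at day 7. Kdr of this list read 10.61 and 10.58 at day 0, 9.69 and 9.63 at day 1 and 9.97 and 9.98 at day 7. Of the 5 fibro-adipogenic markers, 1 rose and 3 fell at day 1. Of the 8 lymphocyte markers, 2 rose and 3 fell at day 7. Ms4a1 of this list read 7.31 and 7.22 at day 0 and 6.64 and 6.86 at day 7. The lowest intensity of any probe set was 5.9, so no marker was at 0, and the part of these lists in the changes of the replication genes was not tested.

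**Figure D5:**
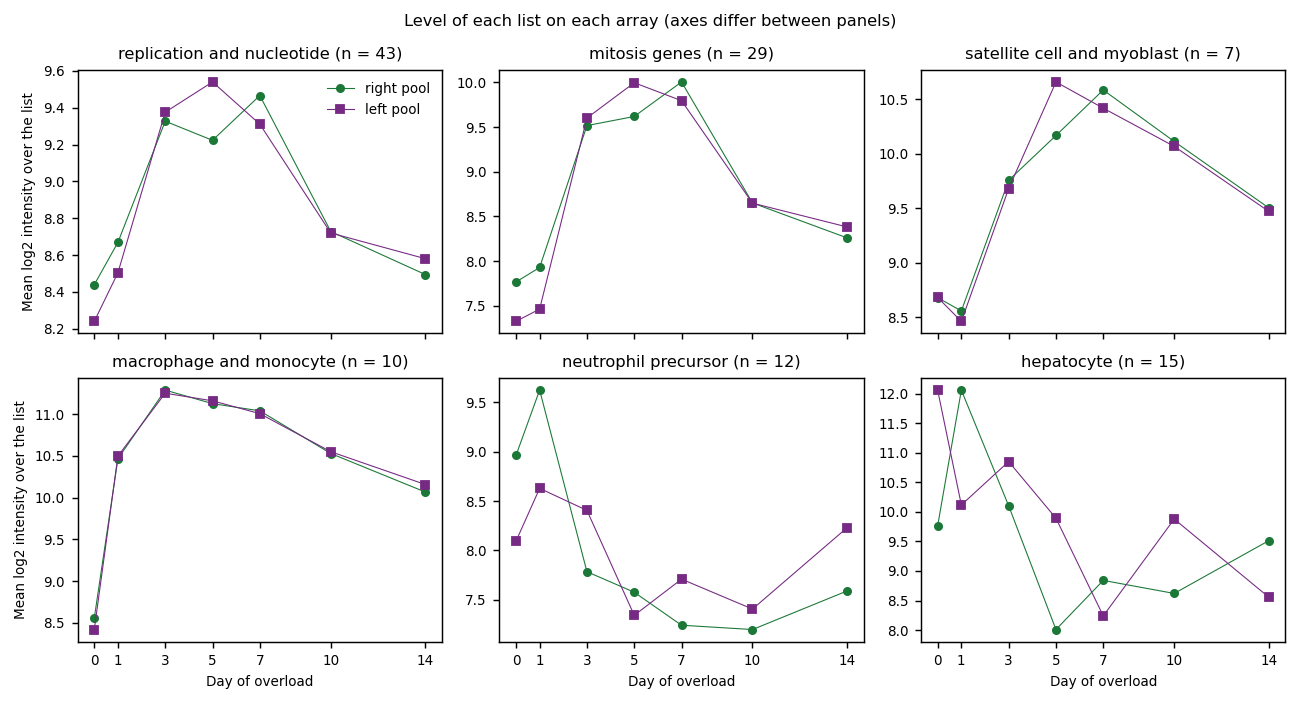
Mean log2 intensity (vertical axes, which differ between panels) of 6 gene lists on each array against the day of overload (horizontal axis), right pools as circles and left pools as squares. The 43 replication genes and the 29 mitosis genes are highest at days 3 to 7 and the satellite cell markers at days 5 and 7. All 3 lists differ between sides at day 5, macrophage markers are already raised at day 1, and hepatocyte markers vary between pools of the same day.

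The other genes of the pathway are given from 4 lists, to be read beside the shares of all genes called. Of all genes, 20.3% rose and 34.7% fell at day 1, 24.2% and 23.4% at day 3, and 27% and 38.1% at day 5. At day 7 the shares were 28.5% and 37.8%, at day 10 23.6% and 27.5%, and at day 14 21.4% and 20.7%. Of 34 other replication factors, 13 rose and 4 fell at day 1, 21 and 2 at day 3, 24 and 2 at day 5, 13 and 5 at day 10 and 10 and 2 at day 14. The largest rises at day 5 were those of Dbf4, the activator of the Cdc7 kinase that fires origins (2.50 ± 0.19, adjusted p = 7.87e-07), the histone chaperone Asf1b (2.50 ± 0.20) and the chromatin remodeller Hells (2.38 ± 0.16). The falls were those of Asf1a (-0.59 ± 0.11), the other Asf1 chaperone, and the origin recognition subunit Orc3 (-0.23 ± 0.07).

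Of 29 measured other nucleotide synthesis genes, 11 rose and 11 fell at day 1, 17 and 6 at day 3, 16 and 7 at day 5 and 11 and 8 at day 14. Dctd, the deaminase that leads to the substrate of Tyms, rose by 1.78 ± 0.13 at day 5, the salvage kinase Dck by 1.38 ± 0.15 and Samhd1, which breaks down deoxynucleotide triphosphates, by 1.21 ± 0.09. Adsl, of purine synthesis, fell by 1.09 ± 0.07. Rrm2b, the alternative small subunit of ribonucleotide reductase, read 9.44 and 9.26 at day 0, 8.48 and 8.75 at day 1, 8.70 and 8.35 at day 5 and 8.67 and 8.71 at day 14. It was below day 0 in each of these pools, by 0.82 ± 0.12 at day 5 (adjusted p = 0.000148), while Rrm2 was above it.

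Of 30 G1 to S regulators, 12 rose and 9 fell at day 1, 19 and 4 at day 3, 22 and 5 at day 5 and 15 and 4 at day 14. Myc, a transcription factor induced by growth signals that is not in this list, rose by 3.86 ± 0.09 at day 1 (adjusted p = 2.92e-10) and by 3.07 ± 0.09 at day 3. Ccnd1, a G1 cyclin of the list, rose by 0.83 ± 0.11 at day 1 and read 11.66 and 11.65 at day 3 against 9.72 and 9.60 at day 0, and E2f1 rose by 0.40 ± 0.12 and then 1.58 ± 0.12. At day 5 the largest rises of the list were Cks1b (2.35 ± 0.17), Cdk6 (2.16 ± 0.13) and E2f8 (2.01 ± 0.20), and the largest falls were the repressor E2f6 (-1.52 ± 0.10) and the E2F partner Tfdp2 (-0.91 ± 0.07).

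Of the 29 mitosis genes, 4 were called higher and 2 lower at day 1 (median change 0.20), and all 29 rose at days 3, 5 and 7, with medians of 2.10, 2.48 and 2.65. Mki67, a protein of cycling cells, read 9.00 and 7.77 at day 0 and 9.24 and 8.09 at day 1, so the pools of a day differed by more than the days (0.28 ± 0.38, adjusted p = 0.554). Top2a, which untangles replicated DNA, was at 0.59 ± 0.28 at day 1 (adjusted p = 0.0945). At day 5 Ccna2 (3.17 ± 0.29), Bub1 (3.16 ± 0.22) and Plk1 (3.11 ± 0.18) rose most. From day 7 to day 10 all 29 fell, with a median of -1.26, and at day 14, 21 were above day 0 and 1 below.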

How the data were processed

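The deposited values are intensity on a linear scale, 1 per probe set, made by the authors with Partek (version not given), per the submitters' processing notes. The summarising and normalizing steps are not given in the sources used here. Array medians lay between 242.8 and 254.9. RNA input is 100 ng in the design text and 250 ng in the labelling protocol. Log2 of the deposited intensity was used with no further normalization. Of 35556 probe sets, 21789 name 1 gene, 1621 several and 12146 none, and the brightest per gene gave 19938 genes. Each gene was fitted in limma 3.58.1 (R 4.3.3) with 1 mean per day over all 14 arrays (7 residual and 3.88 prior degrees of freedom) and 11 comparisons. In simulated data for day 3 against day 0, the fit called 72% of genes changed 1.5-fold and 94% of those changed 2-fold. Only 50 genes per fold size were changed there, and noise was drawn independently for each gene. In the data many more genes changed and gene lists shifted together between pools, so these rates need not hold for them. The members, roles and lists were chosen with earlier results of these data known. Beyond the 43 genes, the named genes are the 3 largest rises and 2 largest falls per pathway list at day 5, 3 brightest markers per marker list, and a panel (Mki67, Top2a, E2f1, Myc, Ccnd1). Pold3, Pold4, Kdr and Ms4a1 were named in addition. All 43 symbols matched RefSeq by gene number. Figures used matplotlib 3.10.9. Side was checked as a pairing: right and left deviations correlated over days from -0.58 to 0.44, above 0.1 for 9 of 21 pairs of days, so side was not used as a block. Alternatives were other normalizations, priors, filters and thresholds, and leaving out arrays.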

Additional observations from a re-analysis of the deposited data

How the results depend on the processing

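With 1 array left out at a time, the number of the 43 genes called ranged from 15 to 22 (day 1), 35 to 40 (day 3), 39 to 41 (days 5 and 7), 23 to 28 (day 10) and 9 to 21 (day 14) against day 0. For the steps it ranged from 32 to 38 from day 1 to day 3, 0 to 1 from day 3 to day 5, 0 to 0 from day 5 to day 7, 14 to 39 from day 7 to day 10 and 0 to 3 from day 10 to day 14. A change over 2-fold in addition to the adjusted p left 4, 21, 22, 20, 4 and 2 genes on the 6 later days in turn, all of them rises. For the steps to day 3, day 5 and day 10 it left 11 (all rises), 0 and 4 (all falls). Of all 19938 genes, 405 (2.03%) rose in this way from day 1 to day 3, and 122 fell from day 7 to day 10. On the 6 later days 6.12%, 7.52%, 8.64%, 9.68%, 6.69% and 4.9% of all genes were called and over 2-fold up. With only the arrays of the days compared, 0 genes passed from day 3 to day 5 and 5 from day 10 to day 14; for the latter, quantile normalization, a robust prior and a trended prior gave 1 each, and a filter that drops the dimmest of 3 equal classes gave 2. The right or left side as a replicate block gave 19, 40, 41, 41, 26 and 19 calls against day 0, and 38, 1, 0, 36 and 0 for the steps. The block takes out a side difference shared by all days and does not settle whether a day's 2 pools share animals. With the day 0 left and day 1 right arrays dropped together, the median change at day 1 was -0.01. Over the single genes and all alternatives against day 0, 4248 called values kept direction and call, 234 lost the call and 0 changed sign; of those not called, 56 gained a call, 1566 kept their sign and 76 turned it without a call. The number of arrays, 2 per day, limits small changes, and the normalization before deposit is unknown.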
